A study of Collinsia rattanii with 18 samples.

Results

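The 9 genes described here are some, not all, of the genes the study places under pollen exine formation in *Collinsia*. They were taken by their identifiers from a count table of 46127 gene models, and all 9 were found in it. The study listed 8 of them because they carry that gene ontology (GO) annotation and changed differently over bud development in its 2 species, in these same libraries. The ninth, *RCORA03278*, it named in its text for its level at the earliest bud stage. High expression at that stage in one species is therefore part of how the genes were picked, and the tests that involve it are descriptions of the members and not independent evidence.

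RNA-seq was performed on whole floral buds of a mostly outcrossing species, *C. linearis*, and of its highly selfing sister species *C. rattanii*. In each species 3 untreated plants were sampled at 3 pre-anthesis stages (early B1, middle B2 and late B3), giving 18 libraries in 6 groups of 3. Each library is of 1 plant at 1 stage. The study sampled several buds per plant and stage and extracted RNA from each. How the buds were combined into a library was not found in the sources used here. The plants of a species came from more than 1 wild population, and the labels do not say which plant came from which. A stage is a range of bud lengths and organ colors, and at B1 petals and anthers are green in both species. Reads of both species were aligned to the *C. rattanii* genome and counted on its gene models, which were built partly from the *C. rattanii* libraries used here. The identifiers are not paired with names or positions, so no anther or other tissue marker could be checked and no promoter or protein sequence is shown. In whole buds, fewer cells of a type and less RNA per cell cannot be told apart.

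The exine is the patterned outer wall of the pollen grain, built of sporopollenin, one of the most resistant polymers that plants make. Its building blocks are made from fatty acids, largely in the tapetum, the cell layer that lines the anther locule and feeds the developing microspores. A temporary wall of callose, a glucan, encloses the microspores while the pattern of the exine is laid down. In *Arabidopsis thaliana* the chalcone synthase-like enzymes LAP5 and LAP6 make polyketide precursors of sporopollenin in the anther. By the study's annotation, *RCORA09826* is orthologous to LAP5 and *RCORA03278* to LAP6. *RCORA186672* shares the annotation with sporopollenin biosynthesis that *RCORA09826* also has, *RCORA14962* is annotated with lipid metabolism, and *RCORA36422* and *RCORA205649* with callose deposition in the cell wall. No second annotation was given for *RCORA171666*, *RCORA201861* and *RCORA175575*.

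Library totals ran from 23831351 to 41451418 counts. Levels are counts per 1000000 (CPM) on library sizes normalized by the TMM method of edgeR. The TMM factors lay between 0.946 and 1.24, except in the B2 and B3 libraries of *C. linearis* plant 2, where they were 0.664 and 0.497. The top 50 genes of those 2 libraries made up 15.6% and 22.8% of their totals, where the range elsewhere was 8.11 to 11.2%. The part of this composition in the members' values was not tested, and leaving out these libraries is covered by the leave-outs below. CPM values are not corrected for gene length, so levels are compared between libraries and not between genes. A count of 0 allows up to 3 counts, which is between 0.0742 and 0.176 CPM depending on the library, a limit that covers counting error only.

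Together the 9 members took 0.319% of all counts in the B1 library of *C. linearis* plant 2 and 0.656% in that of plant 3. In the B1 library of *C. linearis* plant 1 they took 0.00340%. The other 15 libraries, of either species, lay between 0.00118% and 0.00599%. The B1 library of plant 1 was thus within the range of the later stages and of *C. rattanii*, while the other *C. linearis* B1 libraries were far above it.

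**Figure D1:**
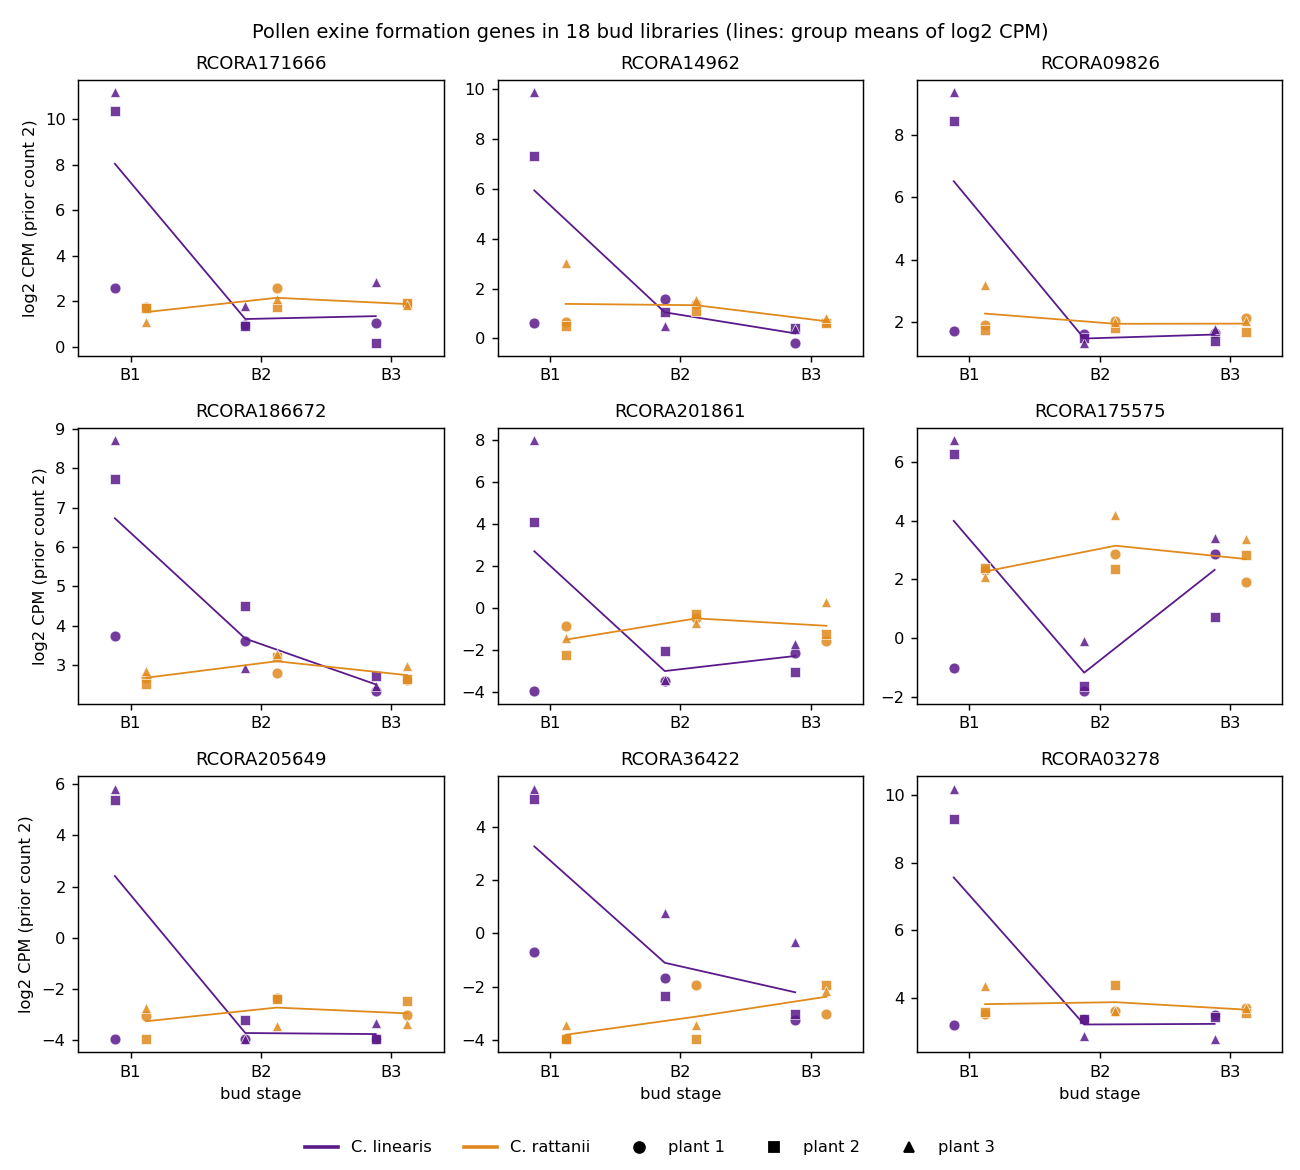
Level of each of the 9 members as log2 CPM (prior count of 2) at stages B1, B2 and B3, with *C. linearis* in purple, *C. rattanii* in orange, plants as symbols and lines through the group means. In every panel the square and the triangle of *C. linearis* plants 2 and 3 at B1 stand above all 16 other libraries, and the circle of plant 1 does not.

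Among the sporopollenin genes, the LAP5 ortholog *RCORA09826* was at 3.22, 353 and 662 CPM in *C. linearis* plants 1 to 3 at B1. It was at 2.99, 2.71 and 2.43 CPM at B2 and at 3.06, 2.53 and 3.35 CPM at B3. In *C. rattanii* it was at 3.66, 3.27 and 8.96 CPM at B1, 3.98, 3.41 and 3.96 CPM at B2 and 4.29, 3.12 and 4.07 CPM at B3. Both high *C. linearis* libraries were at least 39.4 times above the highest of the 16 others, which was the B1 library of *C. rattanii* plant 3.

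The LAP6 ortholog *RCORA03278* followed the same pattern at 9.09, 624 and 1172 CPM in *C. linearis* plants 1 to 3 at B1. It then stood at 10.2, 10.3 and 7.22 CPM at B2 and at 11.2, 10.6 and 6.70 CPM at B3. In *C. rattanii* it was at 11.3, 11.9 and 20.1 CPM at B1, 12.1, 20.8 and 12.1 CPM at B2 and 12.7, 11.6 and 13.0 CPM at B3. Apart from the 2 high libraries, every *C. linearis* value lay below every *C. rattanii* value. The margin was small, 11.2 CPM against 11.3 CPM, and the share of all genes with this pattern was not counted. Plant 3 exceeded plant 2 at B1 by 1.88 times for both LAP orthologs. The treatment of reads shared with near-identical copies of such chalcone synthase-like genes was not found in the sources used here, so both values are uncertain in that respect.

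*RCORA186672* was at 13.3, 214 and 419 CPM in *C. linearis* plants 1 to 3 at B1, at 12.1, 22.6 and 7.49 CPM at B2 and at 4.98, 6.58 and 5.45 CPM at B3. It was lower at B3 than at B2 in every *C. linearis* plant. In *C. rattanii* it was between 5.71 and 9.70 CPM in all 9 libraries, a 1.70-fold range and the narrowest of the 7 members that had a count in every *C. rattanii* library.

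*RCORA14962*, annotated with lipid metabolism, was at 1.48, 156 and 923 CPM in *C. linearis* plants 1 to 3 at B1. It was at 2.97, 2.01 and 1.34 CPM at B2 and at 0.816, 1.29 and 1.22 CPM at B3. In *C. rattanii* the B1 values were 1.5, 1.35 and 7.94 CPM, and those at B2 and B3 ran from 1.46 to 2.83 CPM. The B1 library of *C. rattanii* plant 3 was thus the highest of that species for *RCORA14962*, as it was for *RCORA09826*, with *RCORA03278* at 20.1 CPM in the same library against 11.3 and 11.9 CPM in the other plants at B1. *RCORA171666* had its lowest *C. rattanii* value, 2.08 CPM, in that library.

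The callose genes had few counts outside *C. linearis* B1, at most 59 in a library. *RCORA36422* had 18, 1209 and 1129 counts in *C. linearis* plants 1 to 3 at B1, or 0.557, 32.8 and 42.8 CPM. It had 10, 3 and 59 counts at B2 and 1, 1 and 21 counts at B3, and in CPM plant 3 was the highest of the 3 plants at each stage. In *C. rattanii* it had 0, 0 and 1 counts at B1, 6, 0 and 1 at B2 and 2, 5 and 5 at B3. With 2356 counts in *C. linearis* at B1 against 1 in *C. rattanii*, the ratio on library size was 2585 (95% interval 463 to 102138, counting error only).

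*RCORA205649* had 0, 1538 and 1500 counts in *C. linearis* plants 1 to 3 at B1, or 0, 41.7 and 56.9 CPM. It had 1 count in all at B2 and 1 at B3 in that species, and 0 to 5 counts per library in *C. rattanii*. From B1 to B2 in *C. linearis*, 3038 counts against 1 gave a ratio of 3176 (95% interval 569.5 to 125472, counting error only). Because only 2 libraries held more than a few counts, the edgeR filter removed it, and the edgeR tests below cover the other 8 members. *RCORA36422*, with 0 to 6 counts per library in *C. rattanii*, passed the filter only through *C. linearis* libraries. Its edgeR calls and p-values in comparisons that involve *C. linearis* B1 are therefore no evidence.

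*RCORA171666* was at 5.94, 1297 and 2303 CPM in *C. linearis* plants 1 to 3 at B1. It was at 1.86, 1.84 and 3.42 CPM at B2 and at 2.00, 1.06 and 7.09 CPM at B3. The 9 *C. rattanii* libraries lay between 2.08 and 5.94 CPM with a median of 3.49, and at B3 they differed little, at 3.57, 3.79 and 3.49 CPM. The lower of the 2 high libraries was 183 times the highest of the others, the B3 library of *C. linearis* plant 3. Among the 8 tested members this margin was the widest.

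*RCORA201861* was at 0, 16.9 and 252 CPM in *C. linearis* plants 1 to 3 at B1. It had 1, 4 and 1 counts at B2 and 4, 1 and 7 at B3, against 20, 29 and 19 counts at B2 and 9, 9 and 36 at B3 in *C. rattanii*. In every *C. rattanii* library it was between 0.147 and 1.15 CPM. Plant 3 exceeded plant 2 by 14.8 times at *C. linearis* B1, and by 5.92 times for *RCORA14962*, where the other 7 members gave ratios from 1.31 to 1.96. Each ratio compares 2 single libraries and has no replicate.

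*RCORA175575* stood apart from the other members after B1. In *C. linearis* plants 1 to 3 it was at 0.433, 76.0 and 106 CPM at B1, at 0.223, 0.262 and 0.875 CPM at B2 and at 7.14, 1.59 and 10.5 CPM at B3. In *C. rattanii* it was at 4.97, 5.21 and 4.15 CPM at B1, 7.28, 5.05 and 18.4 CPM at B2 and 3.66, 6.99 and 10.2 CPM at B3. Its *C. linearis* values were lower at B2 than at B1 and higher at B3 than at B2 in all 3 plants, and at B2 they did not overlap those of *C. rattanii*. The B2 values rest on 9, 6 and 32 counts, and the fall in plant 1 was from 14 counts to 9.

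All 9 members had both *C. linearis* B1 libraries of plants 2 and 3 above the 16 others, as had 1715 of the 27837 genes that passed the filter (6.16%). For 7 of the 9, the lower of the 2 was over 10 times the highest of the others, and 97 of the 27837 genes met that criterion (0.348%). The exceptions were *RCORA186672* at 9.48 times and *RCORA175575* at 4.14 times. The listing of the genes used these libraries, so nothing is read from the difference to all genes. In the B1 library of *C. linearis* plant 1, no member was above all of the 15 remaining libraries. *RCORA186672* was the second highest of these 16, *RCORA171666* and *RCORA36422* the third, *RCORA175575* and *RCORA03278* were among the lowest 3, and *RCORA201861* was the lowest.

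The first comparison asked how the members changed early in bud development. In *C. linearis* from B1 to B2 the log2 changes of the 8 tested members ran from -10.35 to -3.94 with a median of -7.00, where the median of all 27837 genes was 0.00. None passed a false discovery rate (FDR, Benjamini-Hochberg) of 0.01 in edgeR's quasi-likelihood test, in which 0.0108% of all genes were called lower at B2. All 8 had an unadjusted p under 0.05, as had 10.1% of all genes in that direction, and 7 passed FDR 0.05, as had 0.553%. In DESeq2, the tool of the study, all 9 members passed FDR 0.01, with 1.69% of genes called in that direction. The change was -6.96 for *RCORA09826* (standard error 1.19; edgeR FDR 0.0301), -6.02 for *RCORA03278* (standard error 1.07; edgeR FDR 0.0303) and -3.94 for *RCORA186672* (standard error 0.79; edgeR FDR 0.0402). It was -8.98 for *RCORA171666* (standard error 1.5; edgeR FDR 0.0301).

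These changes rested on 2 plants. In plant 1 the change from B1 to B2 lay between -1.65 for *RCORA171666* and 0.97 for *RCORA14962* on the log2 scale (prior count of 2). In plant 2 it lay between -9.42 and -3.24, and in plant 3 between -11.43 and -4.68. Within the *C. linearis* B1 group the standard deviation (SD) of log2 CPM over the 3 plants was 2.63 to 6.09 for the 9 members, where the median of all tested genes was 0.41 and the 95th percentile 2.21. In the 5 other groups no member exceeded the 95th percentile. Without the B1 library of plant 1, 8 of 9 tested members passed FDR 0.01 in edgeR, *RCORA09826* at 1.88e-06, with 369 of all genes called in either direction. *RCORA36422* did not, with an FDR of 0.0189. *RCORA205649* was tested in this fit only because the filter, at a smallest group of 2, passed it through its 2 high libraries. Its call is therefore no evidence. With the plant as a replicate block, no member passed and the FDR of *RCORA09826* was 0.134.

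In *C. linearis* from B2 to B3, the tested members changed by -1.31 to 3.80 on the log2 scale, with a median of 0.09, where all genes had a median of 0.01. None passed FDR 0.01 in edgeR (0.0287% of genes called), 1 had an unadjusted p under 0.05 (21.2% of all genes) and 1 passed in DESeq2 (5.55% called). That gene was *RCORA175575*, at 3.80 (standard error 1.25; FDR 0.0962 in edgeR and 0.00694 in DESeq2). By plant its change was 4.65, 2.34 and 3.49. *RCORA186672* had the lowest value, -1.31 (standard error 0.72, edgeR FDR 0.326), negative in all 3 plants.

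In *C. rattanii*, no member passed FDR 0.01 in edgeR or in DESeq2 at either step, and none had an unadjusted p under 0.05 in edgeR, where 5.3% of all genes had one at the first step and 6.68% at the second. The share of all genes called at FDR 0.01 was 0% in edgeR at both steps and 0.18% and 0.328% in DESeq2. From B1 to B2 the sizes ran from -0.54 for *RCORA14962* (standard error 1.16) to 1.1 for *RCORA175575* (standard error 1.1), leaving out *RCORA36422*, which had 1 count at B1 in this species. From B2 to B3 they ran from -0.67 for *RCORA14962* (standard error 1.18) to 0.91 for *RCORA36422* (standard error 1.64). With standard errors of 0.71 or more, changes of about 2-fold were not detectable in this design.

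**Figure D2:**
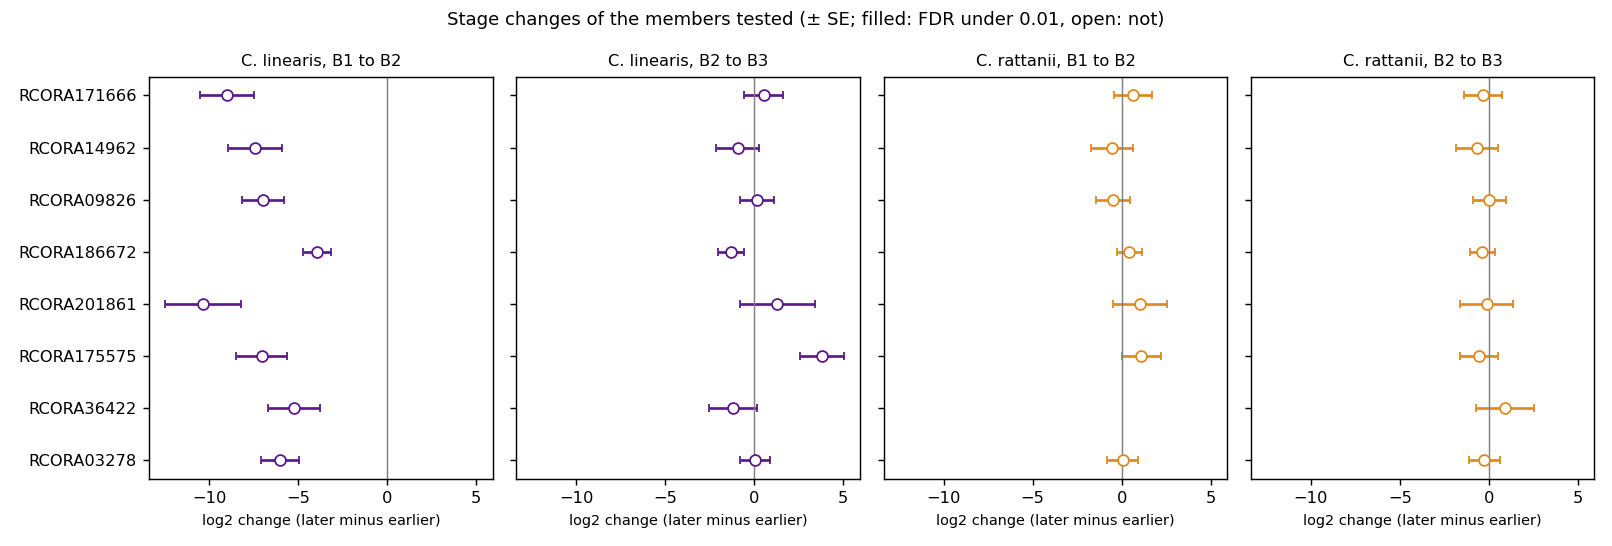
Log2 change of the tested members at each step in each species (edgeR), with bars of ± 1 standard error and filled points for FDR under 0.01. No point is filled, the *C. linearis* B1 to B2 changes lie between -10.35 and -3.94, and *RCORA36422* is left out of the *C. rattanii* B1 to B2 panel because of its single count at B1.

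The next comparison was between the species at each stage. At B1, 7 of the 8 tested members were higher in *C. linearis* at FDR 0.01 in edgeR's quasi-likelihood test, where 6.83% of all genes were called in that direction. The exception was *RCORA175575*, at 3.67 on the log2 scale (standard error 1.2, edgeR FDR 0.0333). The 7 include *RCORA36422*, which passed the low-count filter only through *C. linearis* libraries. Its call is therefore no evidence. The difference was 6.0 for *RCORA09826* (standard error 1.14; edgeR FDR 0.00151), 5.38 for *RCORA03278* (standard error 1.04; edgeR FDR 0.00169) and 5.08 for *RCORA186672* (standard error 0.83; edgeR FDR 0.000518). It was 8.70 for *RCORA171666* (standard error 1.48, edgeR FDR 0.000692), 6.64 for *RCORA14962* (standard error 1.45, edgeR FDR 0.00378) and 8.14 for *RCORA201861* (standard error 1.88, edgeR FDR 0.0054). DESeq2 called all 9 members, with 11.3% of genes called in that direction.

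Taken plant by plant, however, only 3 members had all *C. linearis* B1 libraries above all those of *C. rattanii*, and 22.6% of all tested genes did. These were *RCORA171666*, *RCORA186672* and *RCORA36422*. For the other 6, plant 1 of *C. linearis* lay within or below the *C. rattanii* values. limma-voom, with the plant as a random replicate block, called none of the members at FDR 0.01, with 6.97% of all genes called higher in *C. linearis*. In that fit *RCORA186672* had the lowest FDR, 0.0106, and 5 members were under 0.05 before adjustment. Without the block limma-voom also called none. The call also depended on *C. rattanii* libraries. The number of members called was 4, 3 and 5 of 9 without the B1 library of *C. rattanii* plant 1, 2 and 3, when 3124, 2738 and 2778 of all genes were called, against 4376 with every library. It was 0, 0 and 1 of 9 without all libraries of *C. rattanii* plants 1, 2 and 3, when 2130, 2083 and 2944 of all genes were called. Without the B1 library of *C. linearis* plant 1, all 9 were tested and called, with 3177 of all genes called. These totals over all genes count calls in either direction. The number of genes tested in each leave-out is not given here, so the totals are not shares. In each of these leave-outs *RCORA205649* was tested because the filter, at a smallest group of 2, passed it through its 2 high libraries. Its call in the last fit is therefore no evidence.

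At B2 only *RCORA36422* (3.18) and *RCORA186672* (0.71) kept a positive log2 difference, and the other tested members had a negative one. The log2 differences ran from -4.47 to 3.18 with a median of -0.59 over the 8 tested members, against 0.01 over all genes. None passed FDR 0.01 in edgeR, with 20% of all genes called, and 1 had an unadjusted p under 0.05, as had 48.4% of all genes. DESeq2 called 1, with 30.6% of genes called. The gene was *RCORA175575*, lower in *C. linearis* by -4.47 (standard error 1.28; FDR 0.0150 in edgeR and 0.000171 in DESeq2). Its FDR in edgeR was 0.000807 without the B1 library of *C. linearis* plant 1 and 0.00707 without all libraries of that plant. Its size lay between -5.48 and -3.73 over the 24 leave-outs of a library or a plant. All *C. rattanii* plants were above all *C. linearis* plants for *RCORA09826*, *RCORA201861*, *RCORA175575* and *RCORA03278*, 4 of the 9 members, against 22.5% of all tested genes.

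At B3 the log2 differences ran from -1.83 to 1.08 with a median of -0.30, against -0.02 over all genes. No member passed FDR 0.01 in edgeR (15% of genes called) or in DESeq2 (26.2% called), and none had an unadjusted p under 0.05 in edgeR, as 43.3% of all genes had. All *C. rattanii* plants were above all *C. linearis* plants for *RCORA14962*, *RCORA201861* and *RCORA03278*, against 26.5% of all tested genes. *RCORA03278* and *RCORA201861* thus had higher values in every *C. rattanii* plant at both later stages. The share of all genes that did so at both was not counted, so nothing is read from this. Their log2 differences were -0.70 and -3.25 at B2 and -0.39 and -1.83 at B3, with edgeR FDRs of 0.179 to 0.759.

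**Figure D3:**
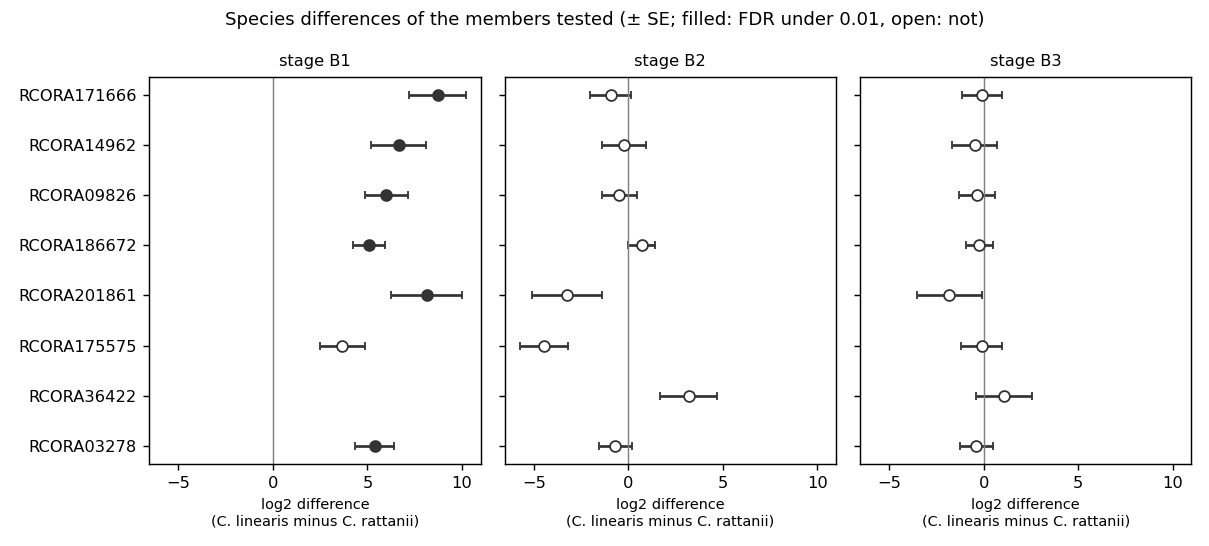
Log2 difference between the species (*C. linearis* minus *C. rattanii*) of the tested members at B1, B2 and B3 in edgeR, with bars of ± 1 standard error and filled points for FDR under 0.01. The filled points are all at B1, and *RCORA36422*, which was called there, is not drawn at B1 because *C. rattanii* had 1 count. At B2 *RCORA175575* lies at -4.47 and at B3 the values lie between -1.83 and 1.08.

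Whether the species differed in their changes over the stages was the contrast for which 8 of the members had been listed, and the ninth was picked from the same libraries, so the values are given as a description. In edgeR no member passed FDR 0.01 for the interaction (0% of genes called), the FDRs lay between 0.0586 and 0.131, and all 8 had an unadjusted p under 0.05, as had 17.7% of all genes. In DESeq2 all 9 passed, with 3.25% of genes called. The early contrast subtracted the *C. rattanii* change from B1 to B2 from that of *C. linearis*. *RCORA09826* had -6.48 (standard error 1.43; edgeR FDR 0.203, DESeq2 FDR 0.000203) and *RCORA03278* -6.08 (standard error 1.32; edgeR FDR 0.191, DESeq2 FDR 0.000224). No member passed FDR 0.01 in edgeR (0% of genes called), and all 8 had an unadjusted p under 0.05, as had 8.89% of all genes. DESeq2 called 8 members, all but *RCORA36422*, with 0.577% of genes called. For the late contrast neither tool called a member (0% of genes called in edgeR and 1.59% in DESeq2), 1 had an unadjusted p under 0.05 in edgeR (13.9% of all genes), and the lowest FDR was 0.251 in edgeR and 0.0664 in DESeq2.

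Without the B1 library of *C. linearis* plant 1, edgeR called 8 of 9 members in the interaction and 8 in the early contrast, with 133 and 110 of all genes called. Without all libraries of that plant it called 6 and 7 of 9, with 100 and 83 of all genes called. Each of these counts of members includes *RCORA205649*, which passed the filter only through its high libraries. The totals over all genes for the early contrast count either direction. In the other 22 leave-outs of a library or plant edgeR called none.

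Likeness between the members was described by Pearson's r of log2 CPM over libraries. Over all 18 libraries the 36 pairs had r from 0.46 to 0.99 with a median of 0.91, and the closest pair was the LAP5 and LAP6 orthologs *RCORA09826* and *RCORA03278*. These points share species, plants and the 2 high libraries. Over the 15 libraries without *C. linearis* B1, r ran from -0.73 to 0.74 with a median of 0.21. The highest pair was then *RCORA14962* with *RCORA09826*, which reached 0.90 over the 9 *C. rattanii* libraries, where both were highest in the B1 library of plant 3. The members' likeness over the series thus rested on the *C. linearis* B1 libraries.

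**Figure D4:**
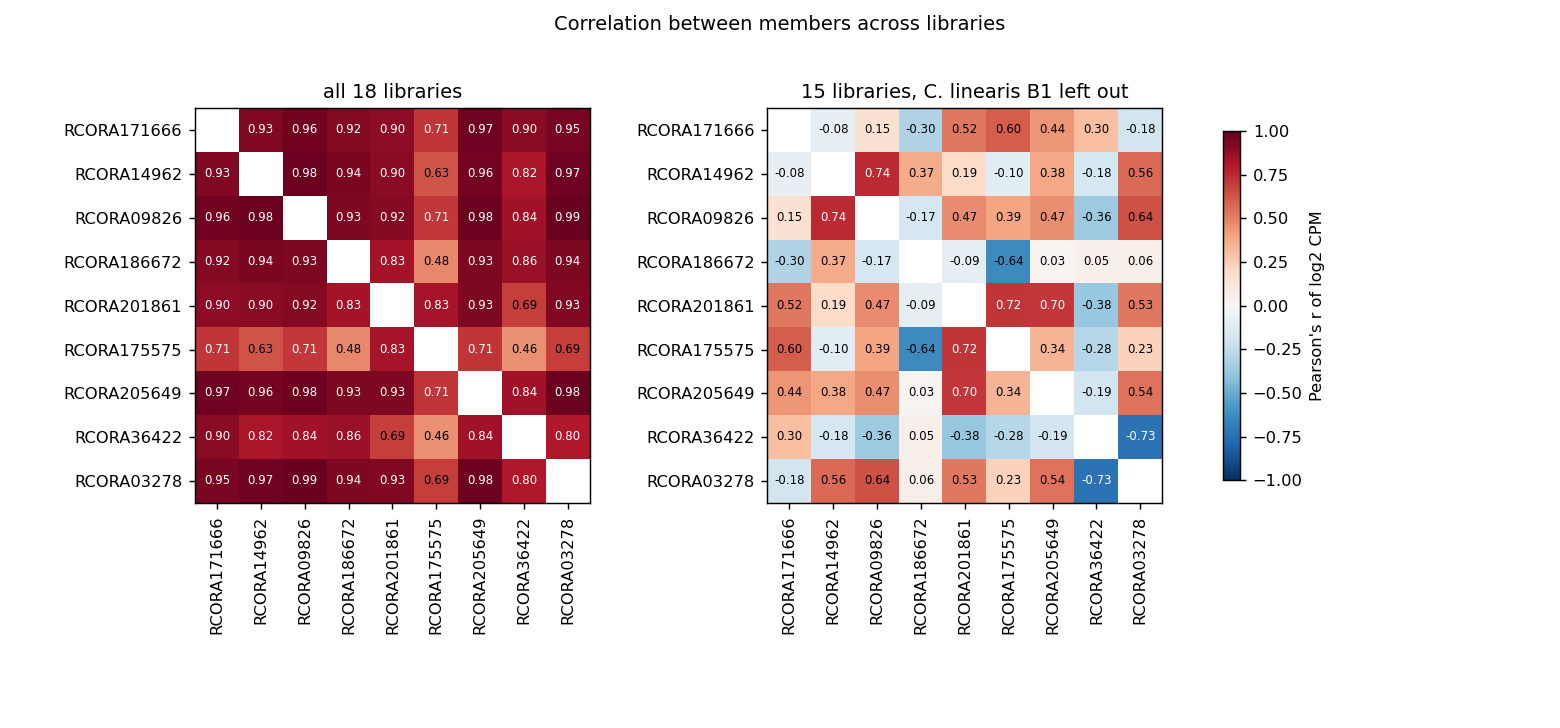
Pearson's r of log2 CPM between each pair of members over all 18 libraries (left) and over the 15 libraries without *C. linearis* B1 (right), with red for positive and blue for negative values. The median over the 36 pairs was 0.91 on the left and 0.21 on the right.

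With the mean profile of the other 8 members, *RCORA09826* and *RCORA205649* correlated best, with r of 0.99 each, and *RCORA175575* least, with 0.68. *RCORA205649* had 0 to 5 counts in every library but the 2 high ones, so its r rests on those 2 and on the prior count. Among genes outside the list, the 2 whose log2 CPM was most like the mean profile of the 9 were *RCORA146260* and *RCORA208040*, each with r of 0.98 over 18 libraries. *RCORA146260* was at 0.402, 198 and 462 CPM in *C. linearis* plants 1 to 3 at B1 and between 0.0816 and 1.34 CPM in all other libraries. *RCORA208040* was at 18.6, 229 and 628 CPM at *C. linearis* B1 and between 13.6 and 29.4 CPM elsewhere. In all, 103 of the 27837 tested genes (0.37%), members included, had r above 0.9 with the mean profile.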

How the data were processed

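The authors used FastQC 0.11.9 (version from the submitters' processing notes) for read quality, STAR in 2-pass mode for alignment to a *C. rattanii* assembly of their own, and featureCounts for counting on its gene models. The deposited table holds these counts as whole numbers with no normalization. The library kit was directional, and the strand setting of the counting and its handling of multi-mapping reads were not found in the sources used here. A further 2 columns had no matching sample label and stayed out.

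Counts were analysed in R 4.3.3 with edgeR 4.0.16 (filterByExpr on 6 groups, TMM, robust quasi-likelihood F-test on species, stage and species*stage over 27837 genes, as in the study's model, FDR 0.01). Standard errors were computed from the log2 change and its F statistic. DESeq2 1.42.0 (LRT for the interaction, Wald tests otherwise) and limma 3.58.1 were alternatives. Only the edgeR test was tried on simulated data, and no result here draws on that trial. Total counts per library were 23831351 to 41451418, so the spread between plants limits precision.

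The plant pairs its 3 libraries. Deviations from group means correlated between -0.45 and 0.641 over the 18 same-plant pairs (median -0.0505, against 0.0152 for different plants). The replicate block on plant was therefore an alternative. No replicate pair agreed within sampling noise (chi-square per degree of freedom 49.5 to 609).

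All 9 members are named, with the 2 genes most like them. The members and lists were chosen with earlier results of these data known. No further pollen wall genes were listed, because the identifiers carry no annotation here.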

Additional observations from a re-analysis of the deposited data

Results flagged for a closer look

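For 2 members every *C. linearis* plant was lower at B2 than at B1 and every *C. rattanii* plant was higher. The share of all genes with this pattern was not counted, so nothing is read from the number. High B1 expression in *C. linearis* was also part of how the members were picked. For *RCORA171666* the log2 changes by plant were -1.65, -9.42 and -9.37 in *C. linearis* and 0.83, 0.04 and 1.01 in *C. rattanii*. The test of the difference, the early contrast, gave -9.63 (edgeR FDR 0.139, DESeq2 FDR 6.32e-08). For *RCORA186672* the changes were -0.14, -3.24 and -5.79 in *C. linearis* and 0.13, 0.68 and 0.45 in *C. rattanii*, and the early contrast was -4.37 (edgeR FDR 0.255, DESeq2 FDR 0.00448). Neither difference passed FDR 0.01 in edgeR.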

How the results depend on the processing

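Counts of members called at FDR 0.01 moved with the tool. DESeq2 called 9 instead of 0 for the *C. linearis* change from B1 to B2, 1 instead of 0 for the B2 to B3 change in that species, 1 instead of 0 for the species difference at B2, 9 instead of 0 for the interaction and 8 instead of 0 for the early contrast. At FDR 0.05 edgeR called 7 for the *C. linearis* change from B1 to B2 and 1 of 8 for the species difference at B2, where 37.9% of all genes passed that threshold. For the species difference at B1 the count fell from 7 to 0 with the random replicate block in limma-voom and was also 0 in limma-voom without the block (an alternative chosen after seeing the data). At B1 limma-voom thus gave the same count with and without the block. In the other comparisons the count of members called did not change with the block. When 1 library or 1 plant was left out, 24 fits in all, the counts ran from 0 to 8 for the *C. linearis* change from B1 to B2, from 0 to 9 for the species difference at B1 (3 to 9 for single libraries), from 0 to 1 for that at B2, from 0 to 8 for the interaction and from 0 to 8 for the early contrast. The highest counts came without the B1 library of *C. linearis* plant 1. The B2 to B3 change in *C. linearis*, both changes in *C. rattanii*, the species difference at B3 and the late contrast gave 0 in every leave-out. RLE size factors and no filter on low counts left each count of members within 1.5 times of its value, as did fitting a species alone, run for the 4 stage changes within a species. No sign of a member's change in the tests repeated per member was reversed. The median r between members was 0.87 with a prior count of 0.5 and 0.21 without *C. linearis* B1. Over all genes, edgeR and DESeq2 called 4 and 704 for the *C. linearis* change from B1 to B2, 8 and 1500 for that from B2 to B3, 0 and 855 for the interaction, 0 and 164 for the early contrast, 0 and 418 for the late contrast, 0 and 50, then 0 and 98 for the steps in *C. rattanii*, and 4376 and 7228, 5561 and 8921, and 4168 and 7631 for the species differences at B1, B2 and B3. Low counts limited *RCORA36422* and *RCORA205649* most, which had 0 to 6 counts per library in *C. rattanii*.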
